A study of Mus musculus with 6 samples.

Results

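DNA replication and G1/S genes were examined in the spleens of female NOD mice, which become diabetic spontaneously through an autoimmune attack on the islets. The list holds 35 genes of origin licensing, the MCM helicase, the replication fork, nucleotide supply and cyclin E control. They were taken by name, at a time when earlier results of these arrays were known. Of the 18193 genes that had an Affymetrix probe set of their own in the annotation used, 34 were members. Chaf1a, the large subunit of chromatin assembly factor 1, was not analysed here. The 34 genes were covered by 75 probe sets, and the brightest probe set of a gene, by its mean over the 6 arrays, represented it.

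The 3 groups were untreated mice without diabetes (untreated non-diabetic), untreated mice with diabetes (untreated diabetic) and TSA-treated mice that were free of it. Trichostatin A (TSA), an inhibitor of histone deacetylases, was injected at 500 µg per kg of body weight each week between 18 and 24 weeks of age. The labels give an age of 32 to 36 weeks for every group, whereas the methods of the study give other ranges for the diabetic and the cured mice, so age and condition cannot be told apart. RNA of 3 to 5 mice a group was combined into 1 pool by the labels, and each pool was labelled and hybridized in duplicate, which gave 6 arrays. The spread between duplicates, and each p-value below, therefore describes 2 hybridizations of 1 pool and not the spread between mice. Treated mice that stayed diabetic were not in the treated pool. The values are log2 levels, so that a difference of 1 is a doubling, and levels of different genes cannot be set against each other because each probe set binds with its own strength.

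Cells commit to division late in G1, when cyclin E bound to its kinase inactivates the retinoblastoma protein and frees E2F transcription factors. E2F targets include many of the genes that build a replication fork. Origins are licensed when ORC, CDC6 and CDT1 load the ring of MCM proteins onto DNA, and the ring becomes an active helicase once CDC45 and the GINS complex join it. In the mouse spleen, dividing cells include germinal center B cells, plasmablasts and the erythroid precursors of the red pulp.

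The sequence around the start sites was searched first. RefSeq windows from 250 bases before to 50 bases after the annotated start, on the GRCm38.p6 build, were at hand for 30 members. The E2F word searched on both strands was TTT, then C or G, then C or G again, then CGC. It occurred in windows of 12 of the 30 members (40.0%), against 2.61% of 27025 genes with a window and 3.29% of the 17491 protein-coding ones. The 12 genes were Mcm3, Mcm5, Mcm6, Mcm7, Orc1, Cdc6, Cdt1, Lig1, Pole2, Pola1, Rfc3 and Uhrf1. CCAAT, the word bound by NF-Y, was searched on both strands in the same way, and the words may share letters. It was present in 17 of the 30 (56.7%), against 41.1% of all genes and 42.3% of the protein-coding ones. The median GC content was 57.7% in the members' windows and 56.3% in protein-coding ones. A match describes letters and shows no binding. The windows that hold the E2F word more than once are printed because they carry it most often among the members, with the matched letters in capitals. They lie at chr1:20820263-20820562 (Mcm3, minus strand), chr8:75109259-75109558 (Mcm5, plus strand), chr1:128359656-128359955 (Mcm6, minus strand), chr5:138171834-138172133 (Mcm7, minus strand) and chr5:151651159-151651458 (Rfc3, minus strand), and each is written 5′ to 3′ on the gene's strand.
Mcm3: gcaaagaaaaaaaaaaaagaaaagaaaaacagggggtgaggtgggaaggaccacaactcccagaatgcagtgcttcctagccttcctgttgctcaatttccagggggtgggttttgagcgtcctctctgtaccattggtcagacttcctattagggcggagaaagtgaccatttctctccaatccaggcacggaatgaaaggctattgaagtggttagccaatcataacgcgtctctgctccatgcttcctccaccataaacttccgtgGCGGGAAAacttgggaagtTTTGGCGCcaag
Mcm5: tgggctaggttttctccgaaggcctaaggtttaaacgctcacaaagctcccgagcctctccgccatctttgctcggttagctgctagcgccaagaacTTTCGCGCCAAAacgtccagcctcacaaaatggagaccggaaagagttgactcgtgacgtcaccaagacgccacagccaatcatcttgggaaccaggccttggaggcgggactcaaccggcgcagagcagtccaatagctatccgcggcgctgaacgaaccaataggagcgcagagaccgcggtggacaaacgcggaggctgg
Mcm6: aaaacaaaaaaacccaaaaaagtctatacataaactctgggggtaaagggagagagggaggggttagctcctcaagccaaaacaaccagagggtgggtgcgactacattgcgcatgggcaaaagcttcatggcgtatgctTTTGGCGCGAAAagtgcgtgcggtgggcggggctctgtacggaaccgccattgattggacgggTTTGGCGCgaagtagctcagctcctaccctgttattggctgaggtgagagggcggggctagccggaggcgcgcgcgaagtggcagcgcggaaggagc
Mcm7: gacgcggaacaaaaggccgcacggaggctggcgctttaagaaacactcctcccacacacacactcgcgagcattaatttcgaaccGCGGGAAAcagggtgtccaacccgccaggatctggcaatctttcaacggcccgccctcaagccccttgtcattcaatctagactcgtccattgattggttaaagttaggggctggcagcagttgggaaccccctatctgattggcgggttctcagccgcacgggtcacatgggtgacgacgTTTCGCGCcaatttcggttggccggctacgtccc
Rfc3: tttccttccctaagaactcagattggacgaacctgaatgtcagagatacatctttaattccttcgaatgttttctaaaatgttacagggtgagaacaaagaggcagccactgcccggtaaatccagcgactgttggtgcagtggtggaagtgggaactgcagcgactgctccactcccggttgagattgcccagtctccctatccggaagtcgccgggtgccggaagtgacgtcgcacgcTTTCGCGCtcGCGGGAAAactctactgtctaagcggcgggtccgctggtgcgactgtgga
In Mcm5 the overlapping words on opposite strands form 1 stretch, and in Mcm6 the 3 matches form 2 stretches. Members with and without the word stood at like distances from the untreated non-diabetic group, with a median difference of 0.64 for the 12 with it and 0.68 for 17 measured members without it in diabetic mice, and of 0.84 and 0.85 in TSA-treated mice.

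The quality of the arrays differed between the groups. The level of 3′ over 5′ probe sets of beta-actin, which grows as RNA is degraded or labelled less far, was 2.35 and 2.05 for the untreated non-diabetic pool, 2.42 and 3.32 on the diabetic and 3.45 and 5.61 on the TSA-treated arrays, as log2 differences. The same measure for Gapdh was 2.67 and 1.91, 1.82 and 3.19, and 3.85 and 4.58. TSA-treated replicate 2 correlated with the other arrays at 0.932 to 0.966, and replicates of the untreated non-diabetic pool with each other at 0.993. Markers of the exocrine pancreas, which a spleen should lack, had medians of 5.07 and 4.98 over 12 genes on the untreated non-diabetic arrays, 11.65 and 11.74 on the diabetic and 9.04 and 8.54 on the TSA-treated arrays. All 12 were called higher in diabetic than in untreated non-diabetic mice. The part of either in the results below was not tested. Marker genes of B cells (median 9.48 and 9.85 on the untreated non-diabetic arrays) and erythroid cells (9.07 and 9.01) were well above the median probe set, at 3.89.

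Replication genes stood lowest in untreated non-diabetic spleens and higher in both other groups. The median level of the 34 members was 7.51 and 7.48 on the untreated non-diabetic arrays, 8.04 and 8.47 on the diabetic arrays, and 8.90 and 8.38 on the TSA-treated arrays. The median over all probe sets stayed between 3.79 and 3.95 on the 6 arrays. TSA-treated replicate 1 held the highest value of 25 members, and an untreated non-diabetic array held the lowest value of 29.

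**Figure D1:**
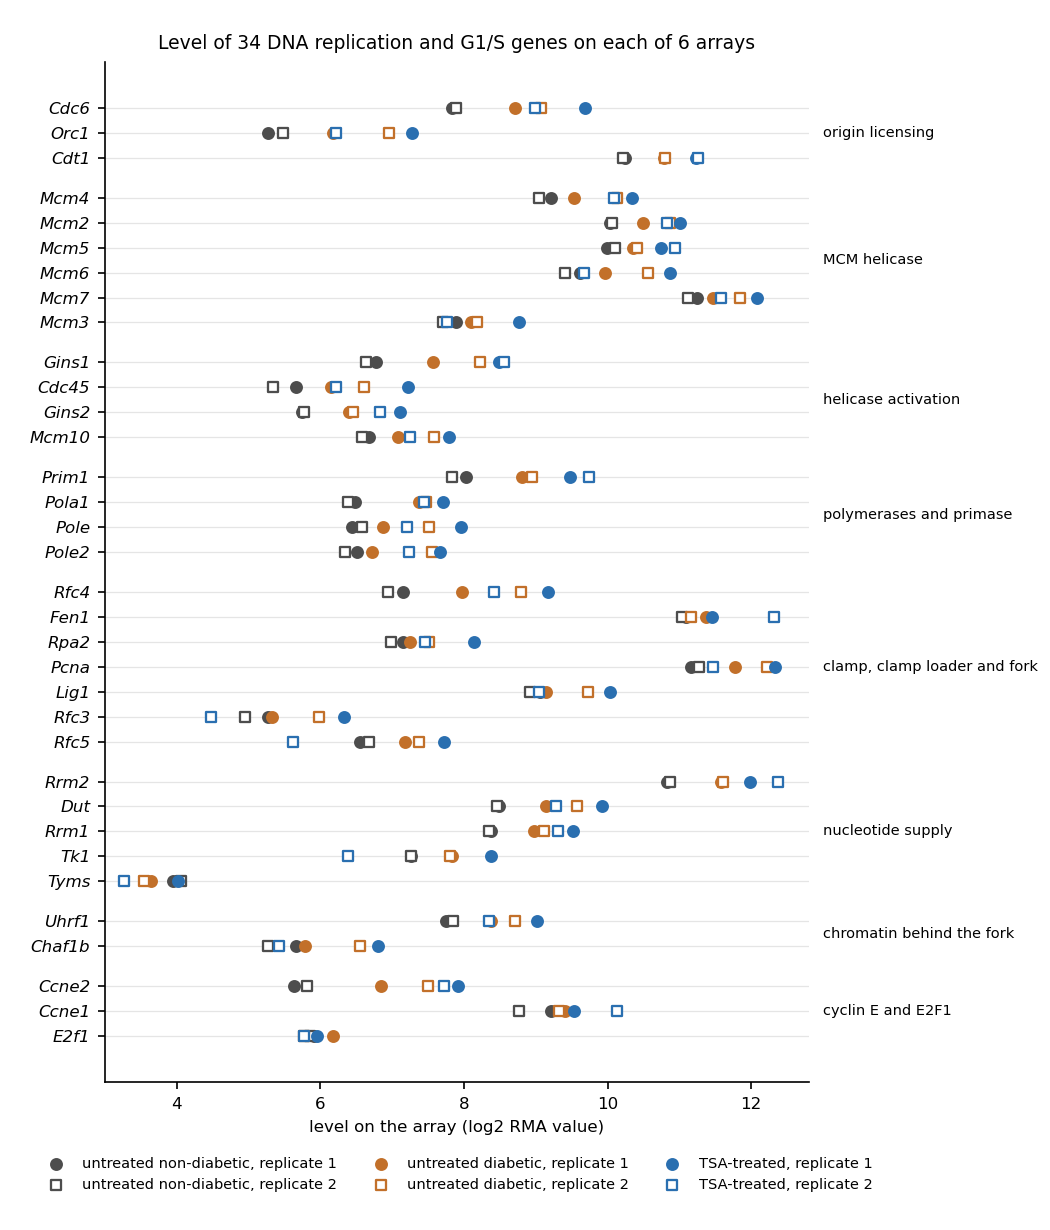
Log2 level (RMA value, x axis) of each of the 34 members on each of the 6 arrays, grouped by role; filled circles are replicate 1 and open squares replicate 2 of the untreated non-diabetic (gray), untreated diabetic (orange) and TSA-treated (blue) pools, and levels are compared along a row only. The gray symbols lie left of both orange ones in 32 rows, and TSA-treated replicate 1 is the rightmost symbol in 25.

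In the order of single arrays, diabetic replicate 1 lay above both untreated non-diabetic arrays in 33 members and diabetic replicate 2 in 32, where 37.4% and 41.5% of all probe sets did so. TSA-treated replicate 1 did so in 33 members (38.8% of all probe sets) and replicate 2 in 26 (51.1%). The full order of untreated non-diabetic below diabetic replicate 1, diabetic replicate 2 and then TSA-treated replicate 1 was found in 29 members, against 5.57% of all probe sets. This order was set after the values were seen and leaves out TSA-treated replicate 2. Duplicates of 1 pool differed too: diabetic replicate 2 was above replicate 1 in 29 members (51.1% of all probe sets), and TSA-treated replicate 1 was above replicate 2 in 27 (42.1%). TSA-treated replicate 1 was above diabetic replicate 2 in all 34 members (48.3% of all probe sets). The 3′ to 5′ values of these arrays were 3.45 and 3.32 for beta-actin and 3.85 and 3.19 for Gapdh, and their part was not tested.

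In the comparison of diabetic with untreated non-diabetic mice, the median member was higher by 0.69 in diabetic mice (0.01 over all probe sets tested), and 33 of 34 were higher. No member was called by limma at an adjusted p under 0.05, where 0.0888% of the 45037 probe sets tested were called. At an unadjusted p under 0.05, 17 members were higher in diabetic mice, against 2.84% of all probe sets, and none was lower. Both diabetic arrays lay above both untreated non-diabetic arrays in 32 members, against 21.6% of all probe sets and 25.8% of those above the median level. A local pooled error (LPE) test, written here after the one that the methods name, called Pcna alone at an adjusted p under 0.05. It called 0.14% of all probe sets higher. The LPE calls of the study came from other software and a stricter threshold and can differ from those given here. The methods' t-test called 0 members after adjustment (0.00222%). Without diabetic replicate 2 the count at an unadjusted p under 0.05 was 8, and it was likewise 8 without untreated non-diabetic replicate 1 or without replicate 2. Fewer cells of a type and less RNA per cell cannot be told apart in RNA of a whole tissue.

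TSA-treated mice were compared with the same untreated non-diabetic arrays, so the comparisons share their baseline. The median member was higher by 0.89 in TSA-treated mice (0.05 over all probe sets), and 32 of 34 were higher. Again limma called 0 members (0.0688% of all probe sets). At an unadjusted p under 0.05, 24 were higher, against 6.39% of all probe sets, and 0 were lower. Both TSA-treated arrays lay above both untreated non-diabetic arrays in 26 members, against 26.3% of all probe sets and 27.8% of those above the median level. LPE called Gins1, Prim1, Rfc4 and Ccne2 (0.249% of all probe sets called higher), and the methods' t-test called 0 members after adjustment (0.00444%). The TSA-treated duplicates decided much of this. Without TSA-treated replicate 1 the median difference was 0.79, and without TSA-treated replicate 2 it was 1.19. In fits that leave out an array, the lone array of a group was taken to vary like the other groups. The share of all probe sets passing in them is not given here, so their counts cannot be weighed. Without untreated non-diabetic replicate 1 or 2 the count at an unadjusted p under 0.05 was 16 or 15.

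Over the 3 groups together, the moderated F test called 0 members at an adjusted p under 0.05 (0.0933% of all probe sets) and 21 at an unadjusted p under 0.05 (9.53%).

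**Figure D2:**
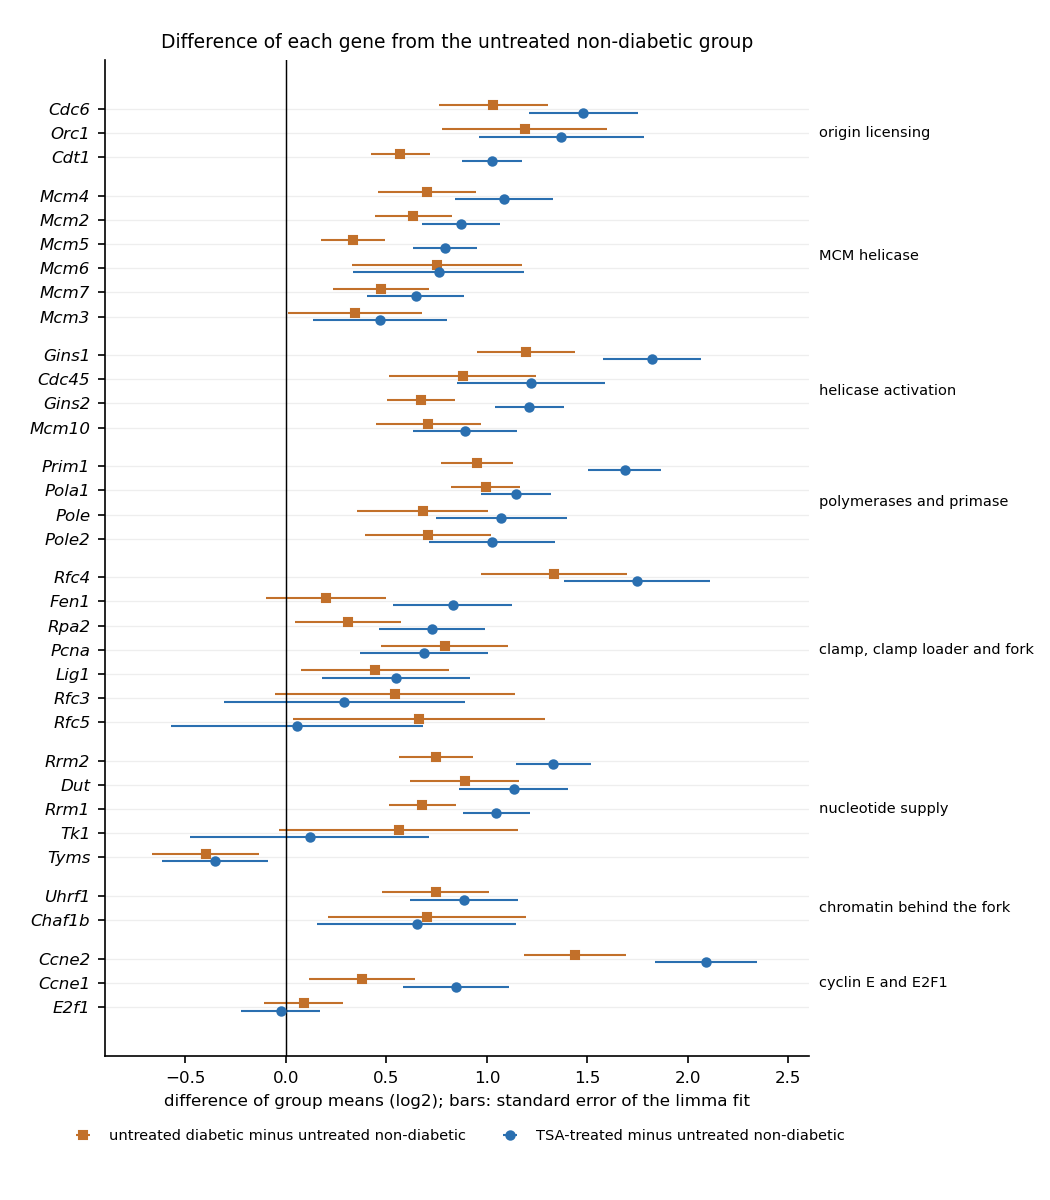
Difference of group means (log2, x axis) of each of the 34 members from the untreated non-diabetic group, for untreated diabetic (orange squares) and TSA-treated mice (blue circles), with bars of 1 standard error of the limma fit (n = 2 arrays a group). Tyms lies left of 0 in both, and the blue bars of Rfc3, Rfc5, Tk1 and E2f1 reach below 0.

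Origin licensing factors had median differences of 1.03 in diabetic and 1.37 in TSA-treated mice over 3 genes, all of them at an unadjusted p under 0.05 in both comparisons. Cdc6, the ATPase that brings the MCM ring to origins, stood at 7.84 and 7.89 in untreated non-diabetic, 8.72 and 9.07 in diabetic, and 9.69 and 8.99 in TSA-treated mice. Its groups did not overlap against the untreated non-diabetic arrays, but TSA-treated replicate 2 lay below diabetic replicate 2. Relative to untreated non-diabetic mice it was 2.04-fold higher in diabetic (log2 difference 1.03, SE 0.27, adjusted p = 0.735 by limma) and 2.79-fold higher in TSA-treated mice (1.48, SE 0.27, adjusted p = 0.127).

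Orc1, the largest ORC subunit, was measured at 5.28 and 5.48, then 6.18 and 6.95, then 7.27 and 6.22 in the same order of groups. The diabetic and TSA-treated ranges overlapped. A further Orc1 probe set of nearly the same mean level was unlike it, with differences of -0.31 in diabetic and 0.04 in TSA-treated mice and 5.16 on diabetic replicate 2 against 6.21 and 6.10 in untreated non-diabetic mice. Cdt1, the partner of CDC6 in loading MCM, gave close duplicates on its representative probe set: 10.24 and 10.21, 10.79 and 10.80, and 11.24 and 11.26. There all 3 groups were apart, in steps of 0.57 and 0.46 with an SE of 0.15 (adjusted p = 0.735 for diabetic against untreated non-diabetic, 0.099 for TSA-treated against untreated non-diabetic and 0.902 for diabetic against TSA-treated, by limma). A further Cdt1 probe set gave 7.54 and 7.30, 7.64 and 8.02, and 8.47 and 6.97, with TSA-treated replicate 2 the lowest array and the TSA-treated duplicates 1.49 apart.

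The MCM2 to MCM7 subunits form the core of the replicative helicase, and all 6 were higher in both groups than in untreated non-diabetic mice, with median differences of 0.55 in diabetic and 0.78 in TSA-treated mice. On the representative probe sets they lay in a narrow range, from 0.33 to 0.75 in diabetic and from 0.47 to 1.08 in TSA-treated mice. Their further probe sets above the median level ranged more widely. These ran from -0.17 (Mcm3) to 0.80 (Mcm7) in diabetic and from -0.67 (Mcm3) to 1.64 (Mcm4) in TSA-treated mice. Mcm4 gave 9.21 and 9.05, 9.54 and 10.13, and 10.35 and 10.08. Mcm2 gave 10.04 and 10.06, 10.49 and 10.87, and 11.01 and 10.83. In both genes every diabetic and TSA-treated array was above every untreated non-diabetic array, and the diabetic and TSA-treated arrays interleaved. Mcm5 gave 10.00 and 10.11, 10.36 and 10.41, and 10.75 and 10.93, with all 3 groups apart; diabetic mice were below TSA-treated mice by 0.46 (SE 0.16, adjusted p = 0.902 by limma). Mcm6 gave 9.62 and 9.40, 9.96 and 10.57, and 10.87 and 9.67, and Mcm7 11.25 and 11.12, 11.46 and 11.85, and 12.09 and 11.57. In these TSA-treated replicate 2 lay under both diabetic arrays or between them. Mcm3, at 7.89 and 7.70, 8.10 and 8.18, and 8.77 and 7.76, was the MCM gene whose TSA-treated replicate 2 fell inside the untreated non-diabetic range; without TSA-treated replicate 1 its difference was -0.04.

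Genes that turn the loaded ring into a working helicase were farther apart on the representative probe sets, with median differences of 0.79 and 1.22 over 4 genes. Gins1, a subunit of the GINS complex, measured 6.78 and 6.63 in untreated non-diabetic, 7.57 and 8.23 in diabetic, and 8.49 and 8.56 in TSA-treated mice. No 2 groups overlapped. It was 2.29-fold higher in diabetic mice (1.19, SE 0.25, adjusted p = 0.69 by limma) and 3.54-fold higher in TSA-treated mice (1.82, SE 0.25, adjusted p = 0.0954) than in untreated non-diabetic mice. Gins2, its partner subunit, measured 5.74 and 5.78, 6.41 and 6.46, and 7.11 and 6.83, with the 3 groups apart as well (adjusted p = 0.0978 for TSA-treated against untreated non-diabetic, by limma). The second Gins2 probe set measured 4.09 and 3.87, 4.57 and 4.84, and 5.33 and 4.34, with TSA-treated replicate 2 below both diabetic arrays. Cdc45, the helicase cofactor, measured 5.66 and 5.34, 6.14 and 6.61, and 7.22 and 6.21. Mcm10, which helps the helicase to start, measured 6.67 and 6.58, 7.09 and 7.58, and 7.79 and 7.24. Both kept the untreated non-diabetic arrays at the bottom, while their TSA-treated replicate 2 lay between the diabetic arrays.

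Polymerase and primase genes had median differences of 0.83 in diabetic and 1.11 in TSA-treated mice over 4 genes, each at an unadjusted p under 0.05 in the second comparison. Prim1, the catalytic primase subunit that lays down RNA primers, read 8.03 and 7.83 in untreated non-diabetic, 8.81 and 8.94 in diabetic, and 9.48 and 9.74 in TSA-treated mice. The groups were apart, and the TSA-treated group had the smallest adjusted p against untreated non-diabetic mice among the representative probe sets of the list. A further Mcm4 probe set had a smaller one (adjusted p = 0.0591 by limma). Prim1 was 1.93-fold higher in diabetic (0.95, SE 0.18, adjusted p = 0.625 by limma) and 3.22-fold in TSA-treated mice (1.69, SE 0.18, adjusted p = 0.0692). Its other probe set read 7.34 and 7.42, 8.23 and 8.77, and 9.19 and 8.49. There the diabetic and TSA-treated arrays overlapped, above both untreated non-diabetic arrays. Pola1, the catalytic subunit of polymerase alpha, read 6.48 and 6.38, 7.38 and 7.48, and 7.71 and 7.44 (adjusted p = 0.541 and 0.103 for the diabetic and the TSA-treated group). Its diabetic and TSA-treated arrays overlapped. Pole, the catalytic subunit of the leading strand polymerase epsilon, read 6.44 and 6.58, 6.87 and 7.52, and 7.96 and 7.21. Pole2, the second subunit of that enzyme, read 6.51 and 6.34, 6.72 and 7.55, and 7.67 and 7.24. In these the diabetic duplicates were 0.65 and 0.83 apart.

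The clamp, its loader and the other fork proteins were mixed, with 7 genes ranging from 0.20 to 1.33 in diabetic and from 0.06 to 1.75 in TSA-treated mice (medians 0.54 and 0.69). Rfc4, a clamp loader subunit, was at 7.15 and 6.95, 7.97 and 8.80, and 9.18 and 8.41. Its diabetic and TSA-treated arrays interleaved, and both groups were clear of the untreated non-diabetic arrays (2.52-fold, adjusted p = 0.735, and 3.35-fold, adjusted p = 0.147, by limma). Another Rfc4 probe set was at 6.50 and 6.79, 7.79 and 8.02, and 8.18 and 9.21. On it all 3 groups were apart and TSA-treated replicate 2 was highest. The other loader subunits of the list were unlike Rfc4 on 1 array. Rfc3 was at 5.27 and 4.95, 5.32 and 5.98, and 6.33 and 4.47, and Rfc5 at 6.56 and 6.68, 7.19 and 7.37, and 7.72 and 5.63. TSA-treated replicate 1 was their highest array and TSA-treated replicate 2 their lowest, so the group means, 0.29 (SE 0.60) and 0.06 (SE 0.63) above untreated non-diabetic mice, describe neither array. Without TSA-treated replicate 1 the differences were -0.64 and -0.99.

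Pcna, the sliding clamp itself, was at 11.16 and 11.27 in untreated non-diabetic, 11.78 and 12.23 in diabetic, and 12.33 and 11.48 in TSA-treated mice. The untreated non-diabetic arrays were the lowest, and the TSA-treated arrays lay on either side of the diabetic ones. Lig1, which seals Okazaki fragments, was at 9.06 and 8.92, 9.14 and 9.73, and 10.04 and 9.04, and Rpa2, a subunit of the protein that coats single strands, at 7.15 and 6.99, 7.25 and 7.51, and 8.14 and 7.45. Fen1, the nuclease that trims fragment ends, differed from the others in that TSA-treated replicate 2 was highest: 11.09 and 11.03, 11.37 and 11.16, and 11.46 and 12.32. A further Fen1 probe set had that array at 7.82, next to 7.78 and 7.87 in untreated non-diabetic mice, with 8.91 on TSA-treated replicate 1.

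Nucleotide supply genes had median differences of 0.68 in diabetic and 1.05 in TSA-treated mice over 5 genes. Rrm2, the small subunit of ribonucleotide reductase whose level follows S phase, had levels of 10.83 and 10.86, 11.58 and 11.61, and 11.99 and 12.37. The 3 groups were apart, at 1.68-fold (0.75, SE 0.19, adjusted p = 0.735 by limma) and 2.51-fold (1.33, SE 0.19, adjusted p = 0.0978) over untreated non-diabetic mice. They were also apart on another Rrm2 probe set, at 8.76 and 8.62, 9.33 and 9.81, and 10.27 and 9.87. The dimmest Rrm2 probe set had 6.99 and 7.19, 7.38 and 8.22, and 8.75 and 7.01. There TSA-treated replicate 2 fell within the untreated non-diabetic range. Rrm1, the large subunit, had levels of 8.38 and 8.35, 8.97 and 9.12, and 9.52 and 9.31, with no overlap between any groups on this probe set. Dut, which clears dUTP, had 8.48 and 8.45, 9.14 and 9.57, and 9.93 and 9.28. Tk1, the salvage kinase for thymidine, had 7.26 and 7.26, 7.84 and 7.81, and 8.37 and 6.39. Its untreated non-diabetic and its diabetic duplicates lay next to each other, and the TSA-treated duplicates were the highest and the lowest array. Tyms, which makes thymidylate, was the only member whose probe sets of its own were all below the median probe set, and the highest of them, with 3.94 and 4.05, 3.64 and 3.55, and 4.02 and 3.27, gives no more than a level near background. A probe set that the annotation assigns to Tyms and its pseudogene together, added after its values were seen, had 7.51 and 7.24, 8.23 and 8.58, and 8.93 and 7.57. There the untreated non-diabetic pair was lowest, and which of the 2 genes gave the signal cannot be told.

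Of the genes that handle chromatin behind the fork, Uhrf1, which leads the maintenance DNA methyltransferase to new DNA, showed 7.75 and 7.84, 8.37 and 8.72, and 9.02 and 8.35. Chaf1b, the middle subunit of chromatin assembly factor 1, showed 5.66 and 5.27, 5.78 and 6.55, and 6.80 and 5.43. Uhrf1 was clear of the untreated non-diabetic arrays in both groups, and Chaf1b in the diabetic group.

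Cyclin E2 held the largest differences of the list. Ccne2 stood at 5.64 and 5.82 in untreated non-diabetic, 6.84 and 7.50 in diabetic, and 7.92 and 7.72 in TSA-treated mice. All 3 groups were apart: 2.71-fold higher in diabetic (1.44, SE 0.25, adjusted p = 0.541 by limma) and 4.26-fold higher in TSA-treated mice (2.09, SE 0.25, adjusted p = 0.0894). Ccne1, the paralog, stood at 9.21 and 8.77, 9.41 and 9.33, and 9.53 and 10.14, with smaller differences of 0.38 and 0.85 (SE 0.26); a further Ccne1 probe set had 0.86 and 1.11. E2f1, the transcription factor upstream of these genes, was the member closest to no difference. Its values were 5.92 and 5.86, 6.17 and 5.77, and 5.95 and 5.77, and the intervals of 1 SE (0.20) around 0.09 and -0.03 span 0. The further E2f1 probe sets had 0.41 and -0.04 in diabetic and 0.67 and 0.37 in TSA-treated mice, so the direction for this gene depends on the probe set.

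Diabetic and TSA-treated mice were also compared with each other. The median member was lower by 0.28 in diabetic mice (0.02 lower over all probe sets), near the SD of 0.28 that the member median showed between duplicates. limma called 0 members (0.0266% of all probe sets), LPE called 0 lower in diabetic mice (0.00222%) and the methods' t-test called 0 (0% of all probe sets). At an unadjusted p under 0.05, 7 members were lower in diabetic mice (2.21% of all probe sets): Mcm5, Rrm2, Gins1, Gins2, Cdt1, Prim1 and Ccne2. Both TSA-treated arrays lay above both diabetic arrays in those 7 and in Rrm1, Fen1 and Ccne1, which makes 10 members against 16.2% of all probe sets. The largest of the 7 was Prim1, 0.74 lower on its representative probe set (SE 0.18, adjusted p = 0.902 by limma). For each of Mcm5, Rrm2, Gins2, Cdt1, Prim1, Rrm1, Fen1 and Ccne1, a further probe set above the median level had these groups overlapping. Another Rrm2 probe set kept them apart. The median difference was -0.02 without TSA-treated replicate 1 and -0.54 without TSA-treated replicate 2, and -0.08 without diabetic replicate 1 and -0.45 without diabetic replicate 2. Without TSA-treated replicate 1, limma called Rfc5 and Tk1, which were then higher in diabetic mice. The count at an unadjusted p under 0.05 was 1 without diabetic replicate 1 and 1 without untreated non-diabetic replicate 1 or without replicate 2.

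The probe sets of the same gene disagreed most on TSA-treated replicate 2. Among the 33 representative probe sets above the median level, that array was above the untreated non-diabetic mean in 27, and TSA-treated replicate 1 in all 33. Among the 27 further probe sets above the median level, from 20 of the genes, the counts were 15 and 25. The difference of TSA-treated replicate 2 from replicate 1 had a median of -0.54 over the representative probe sets (from -2.09 to 0.86) and -0.70 over the further ones (from -3.67 to 1.03). Within a gene, this difference varied between probe sets by a median of 1.36 over those 20 genes, against 0.42 for the diabetic and 0.25 for the untreated non-diabetic duplicates.

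**Figure D3:**
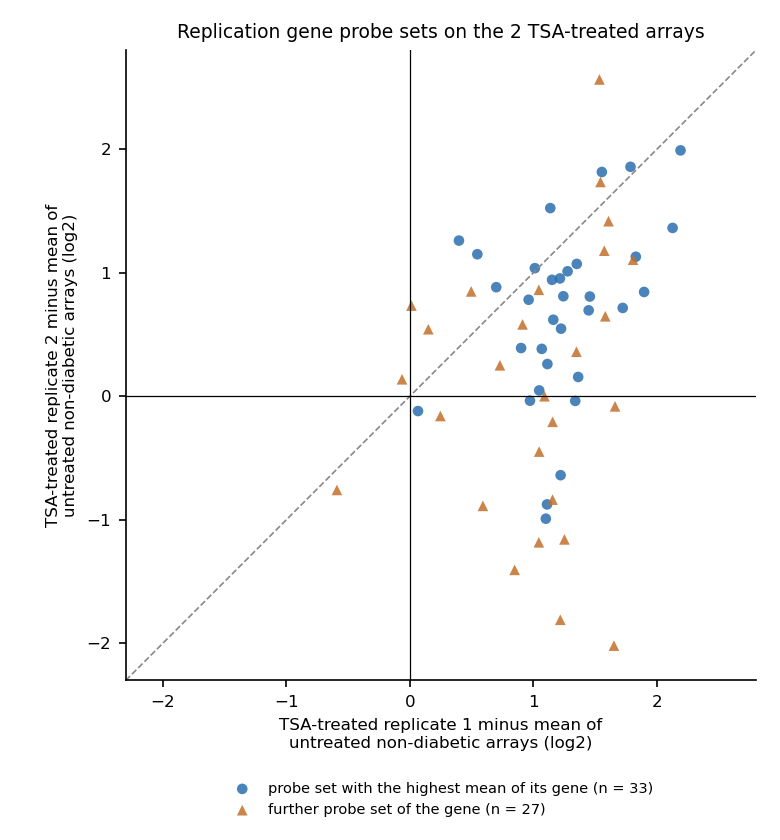
Level on TSA-treated replicate 2 (y axis) against TSA-treated replicate 1 (x axis), each minus the mean of the untreated non-diabetic arrays (log2), for the 60 probe sets of the members above the median level; circles are the representative probe set of a gene (33), triangles further probe sets (27), and the dashed line marks equal values. On the x axis 33 circles and 25 triangles lie right of 0, whereas on the y axis 27 circles and 15 triangles lie above 0.

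Mcm5 shows the split. Its representative probe set gave 10.75 and 10.93 on the TSA-treated arrays, and another gave 8.34 and 6.09, against 7.45 and 7.53 in untreated non-diabetic mice. A further Mcm2 probe set gave 9.05 and 6.02, and a further Rrm1 probe set 7.35 and 3.68, where their untreated non-diabetic values were 7.95 and 7.72, and 5.34 and 6.06. For Mcm4, by contrast, the further probe set gave the same order of groups as the first, at 8.62 and 8.61, 9.33 and 9.46, and 10.16 and 10.35. TSA-treated replicate 2 is also the array with the highest 3′ to 5′ values of beta-actin and Gapdh; whether this set the low probe sets was not tested. With the dimmest probe set of each gene in place of the brightest, the median difference was 0.37 in diabetic and 0.37 in TSA-treated mice, and with their mean 0.50 and 0.60.

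Other genes of the replication machinery had medians close to those of the members. Of 43 fork and origin genes outside the list, 0 were called in any comparison; 19 were higher at an unadjusted p under 0.05 in diabetic mice and 28 in TSA-treated mice, with 0 and 2 lower. Their median differences were 0.70 and 0.91. The brightest of them were Rpa1 (0.06 and 0.41), the large subunit of the single strand binding protein, Slbp (0.78 and 0.98), which binds histone mRNA, Dnmt1 (0.59 and 1.21), the maintenance methyltransferase, and Tipin (1.01 and 1.31), a fork protection factor.

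Regulators of the G1/S step outside the list had smaller medians. Of 34 such genes 0 were called; 10 were higher and 2 lower at an unadjusted p under 0.05 in diabetic mice, and 13 and 2 in TSA-treated mice, with median differences of 0.32 and 0.27. The brightest were Rbbp4 (0.14 and 0.51), Cks1b (0.28 and 1.03), Rb1 (0.57 and 0.99), the retinoblastoma gene, and Tfdp2 (0.77 and 1.35), the dimer partner of E2F proteins. Mitosis genes had larger ones: of 24, 0 were called, 10 and 15 were higher at an unadjusted p under 0.05 and 0 lower, with medians of 0.95 and 1.20. The brightest were Mki67 (0.64 and 0.98), a proliferation marker, Cdc20 (-0.07 and 0.47), an activator of the anaphase ligase, Top2a (0.89 and 0.77), a topoisomerase, and Birc5 (0.71 and 0.76), also known as survivin.

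**Figure D4:**
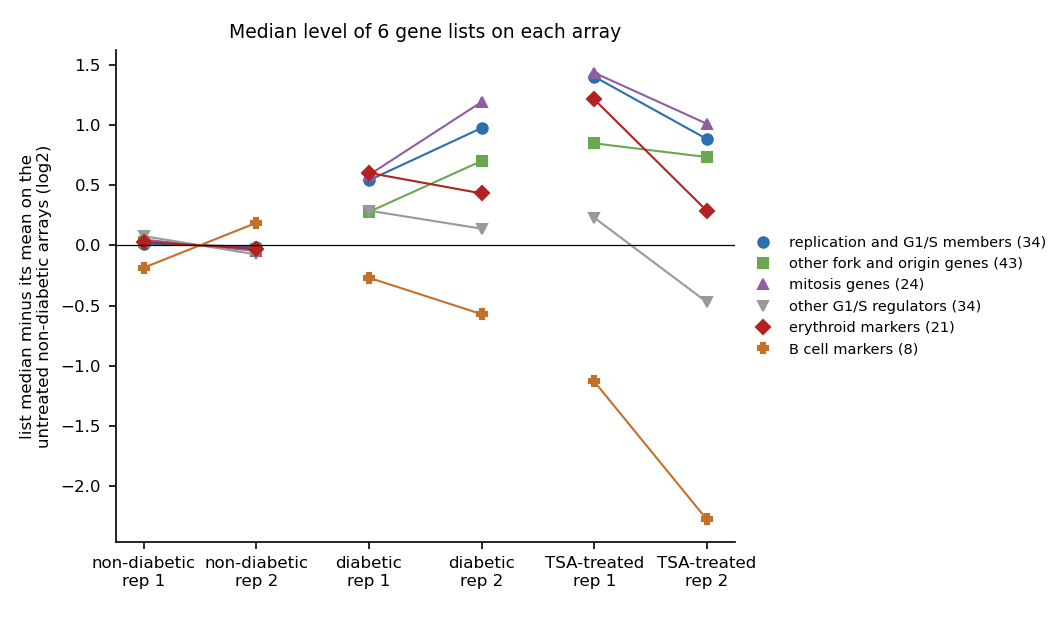
Median log2 level of 6 gene lists on each array, minus the list's mean over the untreated non-diabetic arrays (y axis), with the number of genes in brackets and lines joining the duplicates of a pool. The replication members, other fork and origin genes and mitosis genes lie above 0 on all diabetic and TSA-treated arrays, as do erythroid markers, whereas B cell markers lie below 0 there.

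Spleen RNA mixes cell types, so their markers are given beside the members. Erythroid markers had medians over 21 genes of 9.07 and 9.01 on the untreated non-diabetic, 9.64 and 9.47 on the diabetic and 10.25 and 9.32 on the TSA-treated arrays. The highest was on TSA-treated replicate 1, as for the members. Unlike the members' median, theirs was lower on diabetic replicate 2 than on replicate 1, and TSA-treated replicate 2 lay below both diabetic arrays. The erythroid median differences were 0.53 and 0.72, with 7 and 12 genes higher at an unadjusted p under 0.05, 0 lower at that threshold and 0 called. Single genes ranged from -0.26 to 1.40 in diabetic and from -1.11 to 2.19 in TSA-treated mice, with 3 and 4 of the 21 below 0. The brightest were Car2 (0.78 and 1.11), Slc4a1 (0.17 and 0.54), Tfrc (0.96 and 0.78) and Hemgn (0.90 and 1.34), and the lowest listed gene, Hba-a1, stood between 2.81 and 3.64 on the 6 arrays. Their part in the members' levels was not tested.

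Markers of germinal center and other lymphoid cells had other medians. Over 6 germinal center B cell genes the median difference was 0.18 in diabetic and 0.21 in TSA-treated mice, with 1 and 0 genes higher at an unadjusted p under 0.05. Over 8 B cell genes it was -0.24 and -1.25, with 1 and 8 lower at that threshold. No share of all probe sets is given for genes lower than in untreated non-diabetic mice, so such counts cannot be weighed in any list. The B cell list median was 9.48 and 9.85 on the untreated non-diabetic, 9.39 and 9.09 on the diabetic, and 8.53 and 7.39 on the TSA-treated arrays. Plasma cell genes (8) had median differences of -0.06 and -0.62, T cell genes (8) -0.19 and -0.42 and NK cell genes (6) 0.44 and 0.10. Macrophage genes (10) had 0.20 and 0.03, megakaryocyte genes (7) -0.41 and -0.59 and hematopoietic progenitor genes (8) 0.04 and 0.10. Neutrophil and precursor genes (11) had 0.55 in diabetic and -0.08 in TSA-treated mice. None of these lists had a gene called in any comparison, and the part of any of them in the members' levels was not tested.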

How the data were processed

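Spleen RNA pools of 3 groups (1 pool a group, 2 arrays each) were hybridized to Affymetrix mouse genome arrays. Before deposit the authors applied quantile normalization across arrays and the Robust Multi-array Average (RMA), which gave the log2 levels of 45101 probe sets. The annotation used names 1 gene for 34945 probe sets, several for 932 and none for 9160; these 45037 were tested, and the 64 control probe sets served for 3′ to 5′ values. Its genome build is not given in the sources used here.

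A limma fit (3.58.1, R 4.3.3) took 1 mean per group over all 6 arrays (3 residual and 2.94 prior degrees of freedom), with Benjamini-Hochberg adjustment over all probe sets; a call is an adjusted p under 0.05. The fit, LPE and the methods' t-test were tested on simulated data. Precision is limited by the number of arrays. Replicate numbers did not pair the samples. The members, gene lists and tests were chosen with earlier results of these data known. The counts at an unadjusted p under 0.05 by limma, and those of arrays lying above others, were not planned beforehand. Every member is named, and of other lists the called genes or the 4 with the highest mean. Alternatives were other tests (LPE, t-test, analysis of variance), a replicate block, leaving out each array, fitting the compared groups alone, an intensity trend, robust variances, further centring or quantile normalization, a filter on dim probe sets, and the dimmest or the mean of a gene's probe sets.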

Additional observations from a re-analysis of the deposited data

How the results depend on the processing

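The members' median differences kept their direction under every alternative run, from 0.37 to 0.89 for diabetic and from 0.37 to 1.19 for TSA-treated mice against untreated non-diabetic ones, and from -0.54 to -0.02 for diabetic against TSA-treated mice. With the dimmest probe set of each gene the first pair were 0.37 and 0.37, with 8 and 10 members higher at an unadjusted p under 0.05 and 3 lower in diabetic than in TSA-treated mice; with their mean the TSA-treated value was 0.60, with 4 calls (Mcm4, Prim1, Rfc4, Ccne2). Calls against untreated non-diabetic mice also came from LPE (1 in diabetic, 4 in TSA-treated), the compared groups alone (3 in TSA-treated) and a further quantile normalization (1, Ccne2). The methods' t-test without adjustment passed 11, 13 and 3 members in the 3 comparisons, in either direction, and their analysis of variance 11. Tyms, among the 11 of the first comparison, was lower in diabetic mice. Apart from LPE, the share of all probe sets passing under these alternatives is not given, so their counts cannot be weighed. Lower in diabetic than in TSA-treated mice at an unadjusted p under 0.05 were 3 members with a filter on dim probe sets, 3 with an intensity trend, 4 with the mean of a gene's probe sets, 1 with the compared groups alone and 12 with a further quantile normalization, against 7 in the fit of all arrays.

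Leaving out each array gave 8 to 22 members higher at an unadjusted p under 0.05 in diabetic mice, 15 to 30 in TSA-treated mice and 1 to 9 lower in diabetic than in TSA-treated mice. Calls then ranged from 0 to 8 (TSA-treated against untreated non-diabetic), 0 to 2 (diabetic against TSA-treated) and 0 to 1 (any difference), and the TSA-treated median from 0.79 to 1.19.

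Of 1348 values of single members under alternatives (34 members in each comparison with untreated non-diabetic mice and the 7 named by their unadjusted p between diabetic and TSA-treated mice), 1267 kept direction and side of the threshold, 54 gained a call, 27 of them by the unadjusted t-test or analysis of variance, and 27 changed sign. With the dimmest probe set, Mcm3 (-0.17), Pola1 (-0.078), E2f1 (-0.035), Uhrf1 (-0.23) and Orc1 (-0.31) changed sign in diabetic mice, and Mcm2 (-0.30), Mcm3 (-0.67), Rrm1 (-0.32), Pole2 (-0.045), Rfc3 (-0.069), E2f1 (0.37), Uhrf1 (-0.61) and Rpa2 (-0.15) in TSA-treated mice. With the mean of a gene's probe sets, Tyms (0.0077) and E2f1 (0.34) did so in TSA-treated mice and Mcm5 (0.046) between diabetic and TSA-treated mice, and E2f1 (0.15) after a further quantile normalization. Leaving out arrays, E2f1 ranged from -0.11 to 0.29 in diabetic mice, and in TSA-treated mice Mcm3 from -0.036 to 0.97, Tyms from -0.73 to 0.020, Rfc3 from -0.64 to 1.22, Rfc5 from -0.99 to 1.101, Chaf1b from -0.037 to 1.34, Tk1 from -0.88 to 1.11 and E2f1 from -0.12 to 0.066. Between diabetic and TSA-treated mice, 28 of all 34 members were lower in diabetic mice, and 18 and 33 without TSA-treated replicate 1 and 2 (10 and 5 changed sign) and 21 and 30 without diabetic replicate 1 and 2 (9 and 4 changed sign). The cause was not tested.

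With the replicate number as a block 0 members were called in each comparison and 3 were lower in diabetic than in TSA-treated mice at an unadjusted p under 0.05; the correlation of duplicate differences was -0.34, -0.04 and -0.11 between the groups. The crossed pairing, added after seeing the data for diabetic mice against each of the other groups only, called 0 members in both.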
